A study of Mus musculus with 10 samples.

Results

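The genes described here carry the symbols of proteins of the cytosolic ribosome, the particle that translates every nuclear-encoded mRNA. They were chosen by symbol from the protein-coding genes of the count table, as *Rpl* or *Rps* followed by a number, with *Rpsa*, *Rplp0*, *Rplp1*, *Rplp2* and *Fau* added and with pseudogene symbols, the *Rps6k* kinases and *Rps19bp1* left out. This gave 90 of 54232 genes, 54 assigned by symbol to the large subunit and 36 to the small subunit. A symbol alone does not show that a copy such as *Rps23rg1* encodes a ribosomal protein. No measured value entered that choice, although earlier results of these data were known when it was made.

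RNA was sequenced from whole testes of mice at postnatal day 4 (P4). The 5 *Dis3* cKO mice carried 1 floxed and 1 deleted allele of *Dis3* (*Dis3* F/−) with the *Ddx4*-Cre transgene, which is active in germ cells and removes exons 4 to 6 there. In these mice the somatic cells of the testis therefore also had 1 deleted allele. The 5 control mice were siblings labelled *Dis3* WT. Both groups have the strain label B6D2F1 inbred, and each library came from the testes of 1 mouse. DIS3 is a ribonuclease of the RNA exosome, which degrades and trims nuclear RNA.

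The large subunit joins amino acids at its peptidyl transferase center and passes the chain out through an exit tunnel, and the small subunit reads the mRNA. Most of their mRNAs begin with a run of pyrimidines, the 5′ terminal oligopyrimidine (TOP) tract, through which their translation is regulated together. Mammalian genomes hold many processed copies of these genes, and a few copies are expressed as proteins of their own, some of them mainly in testis.

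Gene counts summed to between 28538849 and 37739906 per library in *Dis3* cKO and to between 35391042 and 41104912 in control. *Dis3* itself averaged 1494 ± 167 normalized counts in *Dis3* cKO and 4596 ± 491 in control (SD, n = 5 each), with no overlap between the groups. Normalized counts were scaled to a common library size by edgeR's TMM factors, and RPKM scales reads by exon length and by library size. The libraries of both groups split into a cluster of replicates 1 to 3 and a cluster of replicates 4 and 5, which neither the labels nor the methods name. *Dis3* cKO replicate 1 was less clearly placed. Its chi-square per degree of freedom was 21.4 and 25.7 to *Dis3* cKO replicates 2 and 3. It was 29.2 and 32.0 to *Dis3* cKO replicates 4 and 5. Of 10 germ cell markers, 9 were tested and 3 were called lower (*Dazl*, *Mael* and *Stra8*), and none was at 0 throughout. Their summed level lay between 14960 and 19826 normalized counts in *Dis3* cKO and between 21845 and 27035 in control. In RNA of a whole testis, fewer germ cells and less RNA per germ cell cannot be told apart. Among 32 tested markers of Sertoli, Leydig, peritubular myoid, endothelial and erythroid cells and macrophages, *Cyp17a1* was called lower and *Myh11* and *Cdh5* were called higher. The marker changes differed between the clusters. The median log2 fold change of the 4 peritubular myoid markers was -0.33 in replicates 1 to 3 and 0.79 in replicates 4 and 5, and all 4 had a called interaction of genotype with cluster (edgeR). For the 9 germ cell markers it was -0.20 and -0.85, with 4 called interactions. Of all tested genes 3.48% were called lower, 4.42% were called higher and 4.58% had a called interaction.

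Ribosomal protein genes took a smaller share of the gene counts in *Dis3* cKO libraries. Members took 2.09%, 2.14%, 2.19%, 2.07% and 2.11% of gene counts in the 5 *Dis3* cKO libraries, against 2.68%, 2.67%, 2.28%, 2.46% and 2.53% in the 5 control libraries. Every *Dis3* cKO library lay below every control library, with control replicate 3 nearest to them. These shares are not scaled by TMM. After that scaling, members summed to between 731766 and 786269 normalized counts in *Dis3* cKO and between 786365 and 894818 in control. Large subunit genes took 1.29% ± 0.0192 of counts in *Dis3* cKO and 1.53% ± 0.0903 in control (SD, n = 5 each). Small subunit genes took 0.834% ± 0.0379 in *Dis3* cKO and 0.996% ± 0.0750 in control. The summed germ cell markers separated the groups in the same way, and their part in these shares was not tested.

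Of the 90 members, 89 passed the filter on low counts. The exception was *Rps27rt*, a retrogene of *Rps27*, with 3.46 ± 1.598 normalized counts in *Dis3* cKO and 4.28 ± 2.49 in control. By edgeR's quasi-likelihood test with Benjamini-Hochberg adjustment over 20043 genes, 20 members were lower and none was higher at an adjusted p under 0.05. At an unadjusted p under 0.05, 44 members were lower and none was higher, against 12.1% of all tested genes lower, and DESeq2 called 28 lower and none higher after adjustment. These tests set the difference between the groups against the spread of libraries within each group. With no covariate, that spread includes the split into clusters of replicates. Among all tested genes 3.48% were called lower and 4.42% were called higher. The lower calls were 11 of 54 large subunit genes and 9 of 35 tested small subunit genes, which is 20.4% and 25.7%. The fold change was negative for 80 of the 89 tested members.

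The count of 20 moved with the libraries and the model, and so did the count over all genes, which was 698. With the cluster of libraries in the model, 38 members and 1669 genes in all were lower, and with the replicate number as a block 32 members and 1337 genes. Replicates 1 to 3 alone gave 15 members and 557 genes, and replicates 4 and 5 alone gave 51 members and 2360.0 genes. Without *Dis3* cKO replicate 5 there were 12 members and 366 genes, without control replicate 1 there were 11 and 382, and without control replicate 2 there were 11 and 371. With each library's trend over exon length removed there were 13 members and 541 genes.

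The difference between the medians of the subunits was not tested. The median log2 fold change (*Dis3* cKO over control) was -0.21 for large subunit genes and -0.22 for small subunit genes, against -0.01 for all tested genes. Large subunit genes ranged from -0.995 to 0.63 and small subunit genes from -0.66 to 0.33. The ratio of large to small subunit counts was 1.528, 1.482, 1.487, 1.620 and 1.598 in *Dis3* cKO replicates 1 to 5 and 1.505, 1.502, 1.561, 1.545 and 1.555 in control replicates 1 to 5. The groups overlapped, and the highest ratios were those of *Dis3* cKO replicates 4 and 5. All *Dis3* cKO libraries lay below all control libraries for 20 members, 17 of them among the called ones, against 4.31% of all tested genes. They lay above all control libraries for none, against 4.59% of all tested genes.

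**Figure D1:**
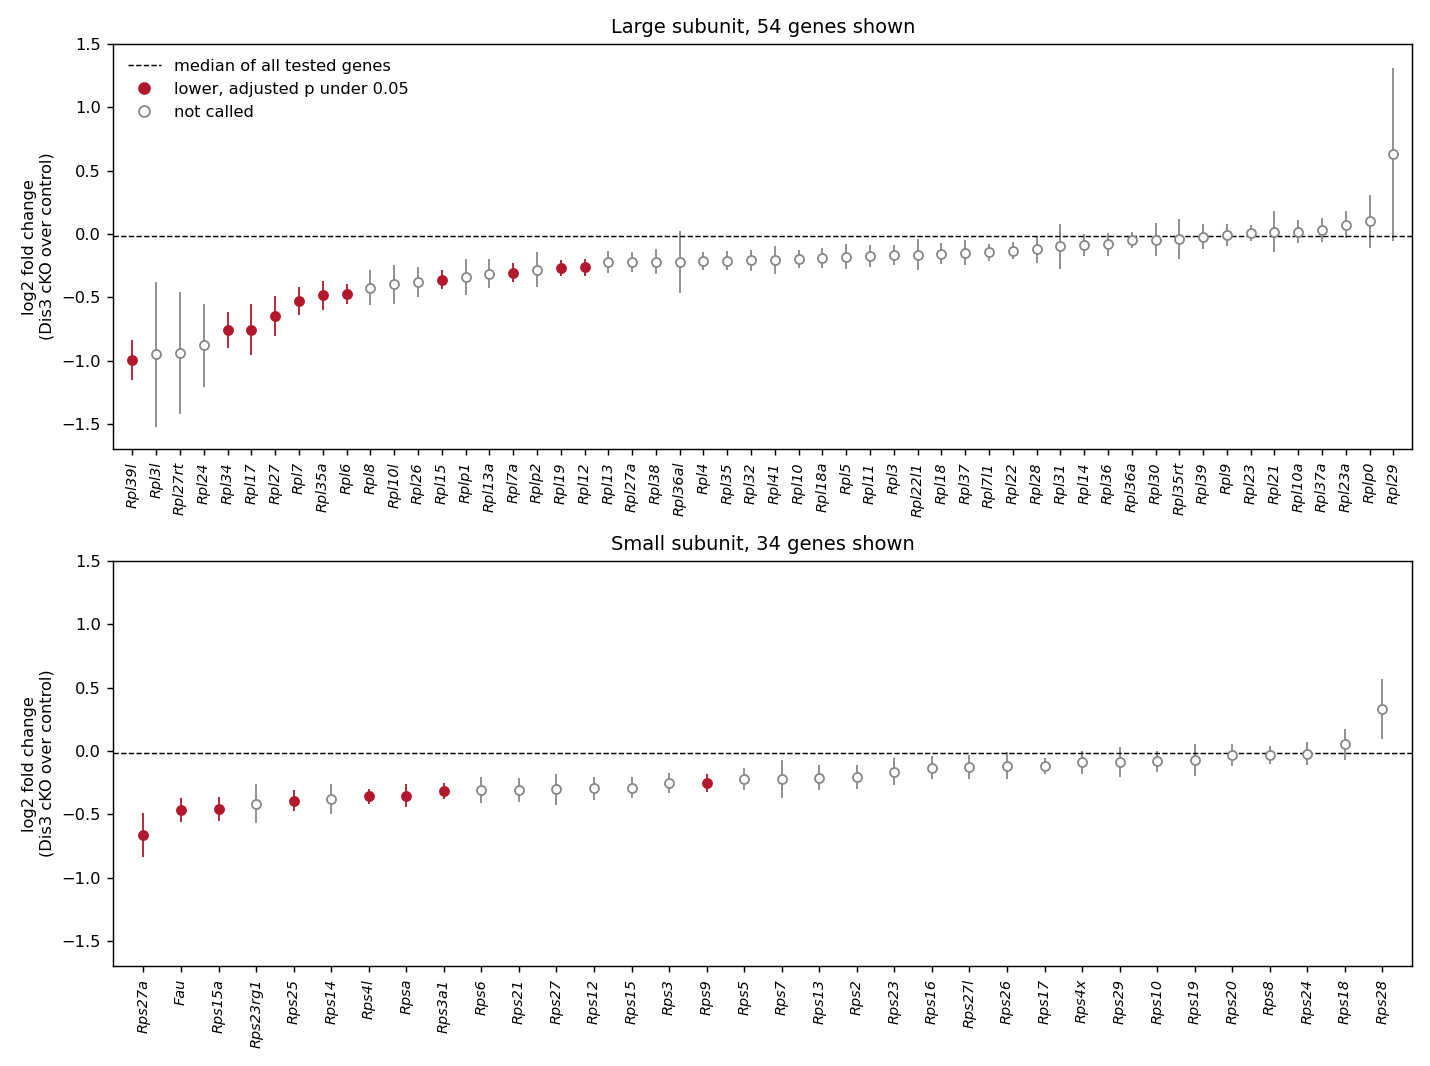
Log2 fold change (*Dis3* cKO over control) of the 54 tested large subunit genes and 34 of the 35 tested small subunit genes, ordered by value. Points are estimates, bars are standard errors, filled points are called lower, and the dashed line is the median of all tested genes at -0.01. Most members of both subunits lie below that line, and *Rpl39l* is the lowest at -0.995.

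The member with the largest fold change was *Rpl39l* (ENSMUSG00000039209.12, GRCm38 chromosome 16 from 10170226 to 10174911). It encodes a paralog of RPL39, which lines the exit tunnel, and in mouse it is known for its expression in male germ cells. Its normalized counts were 174, 191, 233, 127 and 138 in *Dis3* cKO and 363, 336, 289, 383 and 351 in control. The groups did not overlap, and the lowest values were those of *Dis3* cKO replicates 4 and 5. The log2 fold change was -0.995 (SE 0.16, adjusted p = 0.0029 from edgeR), or 50.2% of the control level.

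*Rpl34* (ENSMUSG00000062006.12, chromosome 3 from 130726831 to 130730398) encodes a large subunit protein and had the next lowest value among the called members. It had 2011, 2609, 2854, 2133 and 2431 normalized counts in *Dis3* cKO and 4947, 5010.1, 4104, 3064 and 3266 in control. Control replicates 4 and 5 were the lowest controls and still lay above all *Dis3* cKO libraries. This was a log2 fold change of -0.76 (SE 0.14, adjusted p = 0.0062 from edgeR).

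*Rpl6* (ENSMUSG00000029614.13, chromosome 5 from 121204481 to 121209241), whose protein lies on the surface of the large subunit, had 5988, 6006, 6093, 6118 and 6213 normalized counts in *Dis3* cKO. In control it had 9733, 9365, 7345, 8260.1 and 7536. The *Dis3* cKO libraries lay close together and the controls were spread widely above them. On the log2 scale the change was -0.47 (SE 0.08, adjusted p = 0.0038 from edgeR).

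*Rpl7* (ENSMUSG00000043716.13, chromosome 1 from 16101295 to 16104662), another large subunit gene, had 2862, 3349, 3491, 3862 and 4089 normalized counts in *Dis3* cKO and 4644, 4505, 6466, 4832 and 4979 in control. Control replicate 3 stood above the other controls, and the groups did not overlap. This was a log2 fold change of -0.53 (SE 0.11, adjusted p = 0.011 from edgeR).

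Among small subunit genes, *Rps4l* (ENSMUSG00000063171.4, chromosome 6 from 148354656 to 148355598) had the lowest adjusted p. It is an autosomal copy of the X-linked *Rps4x*. Its normalized counts were 3182, 3081, 3029, 2862 and 2957 in *Dis3* cKO and 3959.8, 3944, 3619, 3940.3 and 3909 in control. The replicates of each group lay close together, apart from a lower control replicate 3. On the log2 scale it fell by 0.36 (SE 0.06, adjusted p = 0.0030 from edgeR).

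*Rps3a1* (ENSMUSG00000028081.6, chromosome 3 from 86137940 to 86142702), one of the most abundant members per length, had 13076, 13574, 13643, 13836 and 12853 normalized counts in *Dis3* cKO and 16571, 16352, 15342, 17872 and 17246 in control. The groups did not overlap, at a log2 fold change of -0.32 (SE 0.06, adjusted p = 0.0071 from edgeR).

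*Rps15a* (ENSMUSG00000008683.16, chromosome 7 from 118104372 to 118116188) had 2302, 2635, 2807, 2736 and 2772 normalized counts in *Dis3* cKO and 4133, 3691, 2858, 3614 and 3924 in control. Control replicate 3 lay just above the highest *Dis3* cKO library. *Rps25* (ENSMUSG00000009927.9, chromosome 9 from 44407139 to 44410427), whose protein is known for its part in initiation at viral internal entry sites, had 8689.6, 10249.7, 10799, 9513 and 8597 normalized counts in *Dis3* cKO and 13417, 13472, 11028, 12198 and 12653 in control. The log2 fold changes were -0.46 for *Rps15a* (SE 0.09, adjusted p = 0.0097 from edgeR) and -0.39 for *Rps25* (SE 0.08, adjusted p = 0.010).

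Members made as fusions with ubiquitin or a ubiquitin-like protein, *Rps27a* and *Fau*, were lower as well. *Fau* (ENSMUSG00000038274.12, chromosome 19 from 6057888 to 6059524) encodes the small subunit protein RPS30 joined to such a protein. It had 2199.6, 2809.5, 3071, 2287 and 2315 normalized counts in *Dis3* cKO and 3557, 3808, 3744, 3167 and 3243 in control, with no overlap and a log2 fold change of -0.47 (SE 0.10, adjusted p = 0.011 from edgeR).

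*Rps27a*, a ubiquitin fusion, had 590.0, 970.4, 1149, 755 and 794 normalized counts in *Dis3* cKO and 1485, 1765, 1384, 1088 and 1034 in control. *Dis3* cKO replicate 3 lay above control replicates 4 and 5. Its log2 fold change was -0.66 (SE 0.17, adjusted p = 0.033 from edgeR), and the call held in 14 of 21 alternatives, with adjusted p values between 0.0013 and 0.088.

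The remaining called large subunit genes had fold changes between those of *Rpl34* and *Rpl12*. *Rpl17*, whose protein lies near the exit of the tunnel, had 249, 441, 652, 371 and 529 normalized counts in *Dis3* cKO and 768, 808, 582, 704 and 925 in control. *Dis3* cKO replicate 3 overlapped the controls there, and the log2 fold change was -0.75 (SE 0.20, adjusted p = 0.036 from edgeR). *Rpl27* had 806, 1293, 1320.4, 699 and 876 normalized counts in *Dis3* cKO and 1438, 1727, 1752, 1479 and 1438 in control, and *Rpl35a* had 4286, 6283, 6489, 5340.3 and 4725 in *Dis3* cKO and 8069.5, 8918, 6715, 6938 and 7329 in control. Neither gene overlapped between the groups. Their log2 fold changes were -0.65 and -0.49 (adjusted p = 0.024 and 0.021 from edgeR).

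Smaller falls were measured for *Rpl15*, *Rpl7a*, *Rpl19* and *Rpl12*, whose protein sits at the base of the stalk that recruits translation factors. Their log2 fold changes were -0.36, -0.31, -0.27 and -0.26, with standard errors between 0.06 and 0.08. Of these, *Rpl12* averaged 17502 ± 297 normalized counts in *Dis3* cKO and 21018 ± 1626 in control (SD, n = 5 each). For the small subunit, *Rpsa* and *Rps9* had log2 fold changes of -0.35 and -0.25. *Rpsa*, whose product is also known as a laminin receptor precursor, averaged 5256 ± 634 normalized counts in *Dis3* cKO and 6712 ± 643 in control. The calls of *Rps9* and *Rpl17* were the least stable, and held in 9 and 12 of 21 alternatives.

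Under all 21 alternatives 9 of the 20 calls held. They were those of *Rpl39l*, *Rpl34*, *Rpl7*, *Rpl6*, *Fau*, *Rps15a*, *Rps25*, *Rps4l* and *Rps3a1*. The fitted level in *Dis3* cKO was 50.2% of control for *Rpl39l* and 80.3% for *Rps3a1*, with the others between them.

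**Figure D2:**
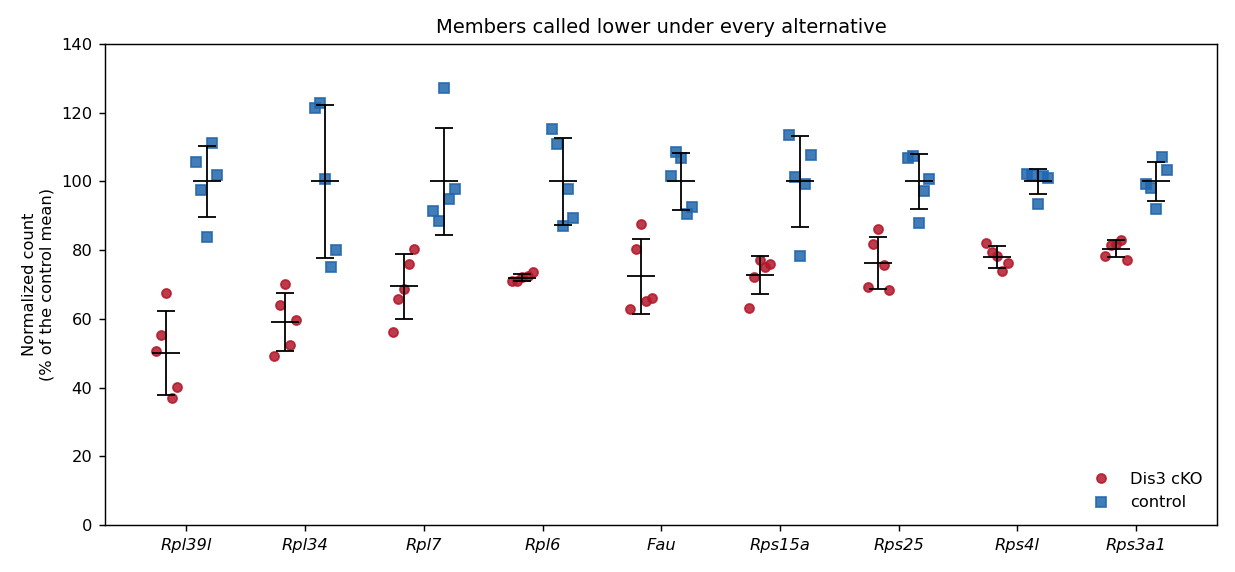
Normalized counts in each library, as a percentage of the control mean, for the 9 members whose lower call held under all 21 alternatives. Each point is 1 library of *Dis3* cKO or control, and bars are means with SD (n = 5 each). The *Dis3* cKO libraries of all 9 genes lie below their controls, with *Rpl39l* farthest down.

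Short stretches around the annotated transcription start are shown for called members with and without a pyrimidine run at that start. They are also shown for 2 paralogs beside their parents, since the tract is what these mRNAs are known to share. RefSeq promoters (build GRCm38.p6) were matched for 67 of the 90 members. Each window runs 5′ to 3′ on the strand of the gene, with 15 bases before the start and 15 from it on. The motif searched was a C followed by at least 4 letters that are each C or T, with that C no more than 5 bases from the start. Capitals mark the match whose C is nearest the start, and other stretches of C and T stay in lower case.
Fau, chr19:6057932-6057961, plus strand: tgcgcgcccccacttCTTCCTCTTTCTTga
Rpl15, chr14:18270972-18271001, minus strand: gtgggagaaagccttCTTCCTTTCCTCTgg
Rps15a, chr7:118116133-118116162, minus strand: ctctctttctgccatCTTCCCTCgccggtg
Rpl35a, chr16:33056467-33056496, plus strand: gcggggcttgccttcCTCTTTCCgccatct
Rpl6, chr5:121204486-121204515, plus strand: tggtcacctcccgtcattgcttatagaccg
Rps3a1, chr3:86142654-86142683, minus strand: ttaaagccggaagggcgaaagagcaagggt
Rpl39, chrX:37085208-37085237, minus strand: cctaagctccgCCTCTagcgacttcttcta
Rpl39l, chr16:10170213-10170242, plus strand: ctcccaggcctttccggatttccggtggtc
Rps27, chr3:90213634-90213663, minus strand: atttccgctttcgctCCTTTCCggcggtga
Rps27l, chr9:66946071-66946100, plus strand: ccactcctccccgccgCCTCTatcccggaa

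In *Fau*, *Rpl15*, *Rps15a*, *Rpl35a* and *Rps27* the first base of the annotated start was the C of a match, and C or T letters also stood directly before it. *Rpl35a* and *Rps27l* have further annotated starts, of which the one with a match is shown. *Rpl6*, *Rps3a1* and *Rpl39l* had no match whose C lies within 5 bases of the start. In *Rpl39l* a run of C and T that begins farther upstream reaches up to the start. The motif, searched on the strand of the gene only, had its C within 5 bases of the start in 34 of 79 member promoters (43.0%) and in 6027 of all 32851 promoters (18.3%). Its C was exactly at the start in 19.0% of member promoters and in 2.51% of all promoters.

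Such a match was present for 9 of 15 called members with a promoter entry and for 22 of 51 members that were not called. The median log2 fold change was -0.22 for members with a match and -0.21 for those without. A match depends on the annotated start, so a member without one can still carry a tract. These medians therefore do not compare mRNAs with a tract to mRNAs without one. Other mRNAs known for a TOP tract, mostly those of translation factors, were lower in part. Of 32 such genes, edgeR called 8 lower and none higher, with a median log2 fold change of -0.14. At an unadjusted p under 0.05 there were 13 lower and 2 higher, and DESeq2 called 8 lower and none higher after adjustment. The lower ones included *Rack1* (-0.24), which encodes a small subunit protein, *Naca* (-0.27), which encodes a chaperone at the tunnel exit, and the initiation factor genes *Eif3m* (-0.34) and *Eif3i* (-0.33). *Eef1a1*, which encodes the factor that brings aminoacyl-tRNA to the ribosome, was at -0.20 (SE 0.08, adjusted p = 0.163), and *Eef2*, which encodes the translocation factor, had -0.01 (adjusted p = 0.972). Of 77 tested genes for proteins of the mitochondrial ribosome, 12 were called lower and none higher by edgeR, with a median of -0.19, and *Mrps16* was at -0.46 and *Mrpl28* at -0.54 among them. There were 33 lower and none higher at an unadjusted p under 0.05, and 19 lower and none higher with DESeq2. The shares lower over all tested genes were 3.48% with edgeR, 12.1% at an unadjusted p under 0.05 and 4.65% with DESeq2.

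Of the members listed for a role beyond the core of the ribosome, *Rpsa*, *Rps27a* and *Fau* were called and are described above. None of the other 12 passed edgeR's test or that of DESeq2. At an unadjusted p under 0.05 in edgeR, 4 of the 12 were lower and none higher, against 12.1% of all tested genes lower. The stalk proteins RPLP0, RPLP1 and RPLP2 activate the GTPase factors of translation. *Rplp1* averaged 7682 ± 1492 normalized counts in *Dis3* cKO and 9727 ± 1686 in control, and *Rplp2* averaged 17949 ± 2567 in *Dis3* cKO and 21819 ± 4757 in control (SD, n = 5 each). Their log2 fold changes of -0.34 and -0.28 did not pass the test (adjusted p = 0.152 and 0.234 from edgeR), and the groups overlapped.

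*Rpl5* and *Rpl11*, whose proteins bind 5S ribosomal RNA and can inhibit MDM2, had log2 fold changes of -0.18 and -0.17 (adjusted p = 0.283 and 0.260 from edgeR). *Rps6*, the substrate of S6 kinases, was at -0.31 (SE 0.10, adjusted p = 0.075), and *Rps19*, which is mutated in Diamond-Blackfan anemia, was at -0.07 (SE 0.12, adjusted p = 0.780). *Rpl38*, known for its part in mouse body patterning, was at -0.22 and *Rps26*, whose protein contacts mRNA upstream of the start codon, was at -0.12. *Rpl10*, known for its late joining to the large subunit, was at -0.19 and *Rps4x*, an X-linked small subunit gene, was at -0.09.

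Levels of members per length ran over a wide range. The highest large subunit genes were *Rpl36* (1059 RPKM in *Dis3* cKO and 1119.7 in control), *Rpl4* (863 RPKM in *Dis3* cKO and 1002 in control) and *Rpl38*. Among the highest small subunit genes were *Rps15* and *Rps3a1*, with means over both groups of 679.6 and 444 RPKM. *Rpl4* had 61337, 56508, 56291, 64674 and 61518 normalized counts in *Dis3* cKO and 66601, 66218, 66988, 74819 and 74111 in control. These groups did not overlap, yet the log2 fold change of -0.22 (SE 0.07, adjusted p = 0.073 from edgeR) did not pass, and the same held for *Rps15* (-0.29, adjusted p = 0.051).

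The lowest tested members per length were *Rpl27rt*, *Rpl3l* and *Rpl24* in the large subunit and *Rps23rg1*, *Rps15a* and *Rps14* in the small subunit. *Rps15a* ranks there through its annotated exon length of 6270 bases. It averaged 3644 normalized counts in control, against 835 for *Rps14*. *Rpl24* is a core gene, yet it had 28.4, 12.3, 25.7, 26.6 and 11.3 normalized counts in *Dis3* cKO and 28.0, 47.1, 45.3, 24.9 and 45.9 in control, for a mean of 0.827 RPKM. Its log2 fold change was -0.88 (SE 0.33, adjusted p = 0.117 from edgeR). The counting command in the file header has no option for reads that align to several places, and such reads are left out by default. The counts of members with near-identical copies are uncertain for that reason, and the share of reads left out was not tested. The retrogenes *Rpl27rt*, *Rpl35rt* and *Rps23rg1* had log2 fold changes of -0.94, -0.04 and -0.42. None was called by edgeR or DESeq2, and 1 was lower at an unadjusted p under 0.05, against 12.1% of all tested genes.

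Paralogs whose symbol ends in l or l1 were compared with their parents as a ratio within each library, which does not depend on library scaling. There were 8 pairs, and all 8 paralogs had a negative log2 fold change, of which *Rpl39l* and *Rps4l* were called. With 5 libraries a group the exact permutation test cannot give less than 0.0079, or 0.063 after adjustment over 8 pairs for a single pair at that limit. No pair passed an adjusted p of 0.05.

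The pair *Rpl39l* and *Rpl39* was the only one of the 8 whose groups did not overlap. The level of *Rpl39l* per length was 4.92% of that of *Rpl39* in *Dis3* cKO and 9.68% in control. The log2 ratio was -4.90, -5.12, -4.70, -5.52 and -5.55 in *Dis3* cKO and -4.27, -4.37, -4.09, -3.92 and -4.10 in control, with no overlap. The difference was -1.01 (SE 0.18, exact permutation p = 0.0079, the smallest possible, adjusted p = 0.063). *Rpl39* itself averaged 6055 ± 574 normalized counts in *Dis3* cKO and 6143 ± 858 in control (SD, n = 5 each).

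*Rps4l* was at 120% of the level per length of *Rps4x* in *Dis3* cKO and at 144% in control. In counts not divided by exon length it was at 69.3% in *Dis3* cKO and 83.5% in control. Which of these genes is higher thus depends on the annotated exon lengths, 943 bases for *Rps4l* and 1631 for *Rps4x*. The difference in log2 ratio was -0.26 (SE 0.12, exact permutation p = 0.079, adjusted p = 0.212), and the groups overlapped. *Rpl7l1*, a paralog of *Rpl7*, was at 52.2% of its parent per length in *Dis3* cKO and at 40.0% in control. That difference of 0.38 (SE 0.17, exact permutation p = 0.056, adjusted p = 0.212) had the other sign. *Rpl7* was called lower and *Rpl7l1*, at a log2 fold change of -0.14, was not.

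*Rpl10l* is an autosomal copy of the X-linked *Rpl10* that is known in mouse for replacing it in meiosis. It had 242, 269, 331, 191 and 213 normalized counts in *Dis3* cKO and 304, 342, 258, 379.6 and 359 in control. The groups overlapped, and *Dis3* cKO replicates 4 and 5 were the lowest libraries. The log2 fold change was -0.40 (SE 0.15, adjusted p = 0.131 from edgeR). *Rpl3l*, known from striated muscle, had 18.5, 17.1, 12.3, 0 and 4.53 normalized counts in *Dis3* cKO and 17.7, 30.2, 19.3, 24.0 and 11.03 in control. At that depth its log2 fold change of -0.95 carried a standard error of 0.57.

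For the remaining 3 pairs the differences in log2 ratio were -0.01 for *Rpl22l1* over *Rpl22* (SE 0.10), -0.16 for *Rpl36al* over *Rpl36a* (SE 0.27) and 0.20 for *Rps27l* over *Rps27* (SE 0.19). RPL22 is known for its role in T cell development, and *Rps27l* is a p53 target. Their adjusted p values lay between 0.423 and 0.937 by the exact permutation test.

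**Figure D3:**
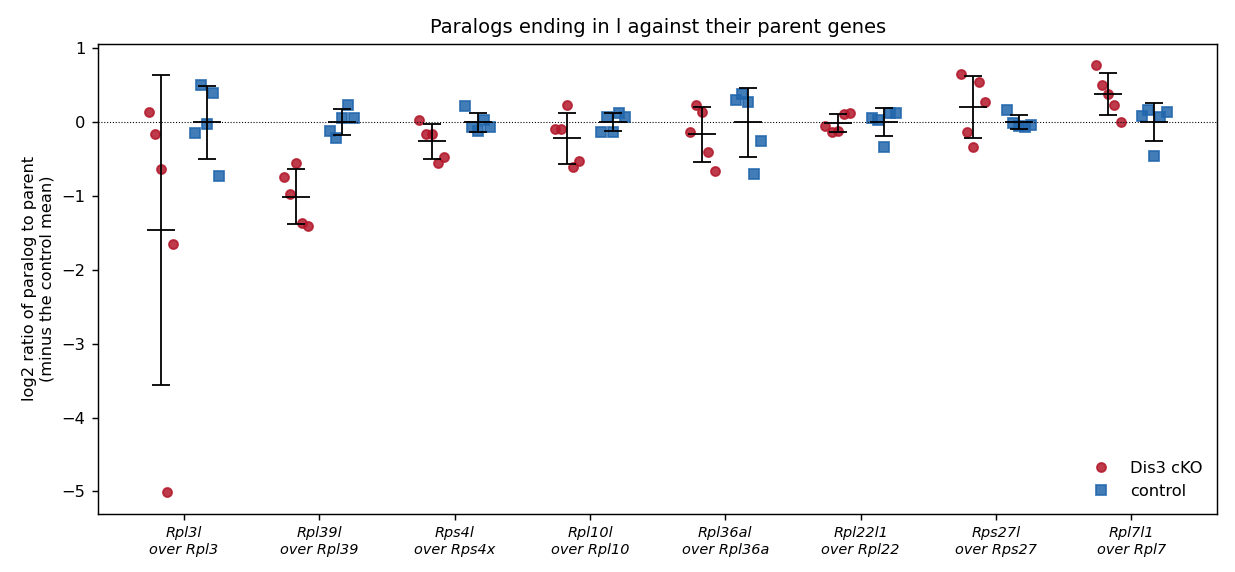
Log2 ratio of each of 8 paralogs to its parent gene in each library, with the mean of the controls subtracted. Points are libraries of *Dis3* cKO and control, and bars are means with SD (n = 5 each). *Rpl39l* over *Rpl39* is the pair without overlap, at a difference of -1.01, and the lowest point of *Rpl3l* is *Dis3* cKO replicate 4, which had no read of that gene.

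The second deposited table counts antisense reads in windows of 3000 bases upstream of genes, where promoter upstream transcripts (PROMPTs), short-lived RNAs that the exosome is known to degrade, arise. A window was listed for 44 members. The paper chose its windows so that none overlaps another annotated gene. In the gene table no gene on the opposite strand reaches into any of the 44, which that choice fixed in advance. Of 40 windows with a mean of at least 3 counts, 24 were called higher and none lower by edgeR, and 30 were higher and none lower at an unadjusted p under 0.05, against 21% of all tested windows higher. This table was added to the planned comparisons after the design had been set. Among all 12345 windows tested, 13.6% were called higher and 0.0486% lower. That share depended on depth. With a mean of at least 10 counts required, 24 of 28 windows of members were called higher, against 49.9% of all 3216 windows tested. The median log2 fold change was 1.53 for windows of members and 0.64 for all tested windows.

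Both subunits had such windows, with 15 of 26 called higher in the large subunit and 9 of 14 in the small subunit. In 14 of the 40 windows all *Dis3* cKO libraries lay above all control libraries, against 11.1% of all tested windows. Summed over the 40 windows, normalized counts lay between 1302 and 2394 per library in *Dis3* cKO and between 638 and 898 in control. The number called higher was 19 to 24 when any 1 library was left out (1322 to 1662 of all windows) and 9 in replicates 4 and 5 alone (438 of all windows, against 1673 with all libraries).

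The window of *Rpl26*, whose protein lies near the exit tunnel (GRCm38 chromosome 11 from 68898583 to 68901582), had 184, 162, 142, 83.1 and 96.2 normalized counts in *Dis3* cKO. In control it had 17.7, 13.2, 10.9, 34.5 and 19.3. Replicates 4 and 5 were the lowest of the *Dis3* cKO libraries. This was a log2 fold change of 2.80 (SE 0.30, adjusted p = 2.46e-18 from edgeR), while the gene *Rpl26* itself was at -0.38 (SE 0.12, adjusted p = 0.067).

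Upstream of *Rps16* (chromosome 7 from 28347652 to 28350651) there were 171, 162, 132, 103 and 125 normalized counts in *Dis3* cKO, against 27.9, 31.1, 44.5, 25.9 and 6.43 in control. Upstream of *Rpl14* (chromosome 9 from 120568444 to 120571443) there were 129.5, 95.9, 90.6, 94.1 and 71.3 in *Dis3* cKO, against 27.0, 20.7, 15.1, 6.71 and 15.6 in control. In neither window did the groups overlap. The log2 fold changes were 2.34 (SE 0.28) and 2.49 (SE 0.32), with adjusted p values of 2.53e-14 and 1.05e-12 from edgeR.

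*Rpsa* was the only called-lower member whose window was called higher, out of 3 called-lower members with a tested window. Its window had 34.5, 32.3, 26.8, 19.9 and 15.9 normalized counts in *Dis3* cKO and 9.32, 1.88, 2.52, 3.84 and 0.92 in control, a log2 fold change of 2.77 (SE 0.56, adjusted p = 2.26e-05 from edgeR). The windows of *Rpl39l* and *Rpl27*, the other called genes, had log2 fold changes of 1.20 (SE 0.86) and -0.12 (SE 0.76) and were not called. The deepest window, upstream of *Rpl10l*, had 458, 493, 428, 210.4 and 148 normalized counts in *Dis3* cKO and 335, 282, 358, 286 and 234 in control. Its log2 fold change of 0.22 (SE 0.19, adjusted p = 0.618 from edgeR) did not pass.

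**Figure D4:**
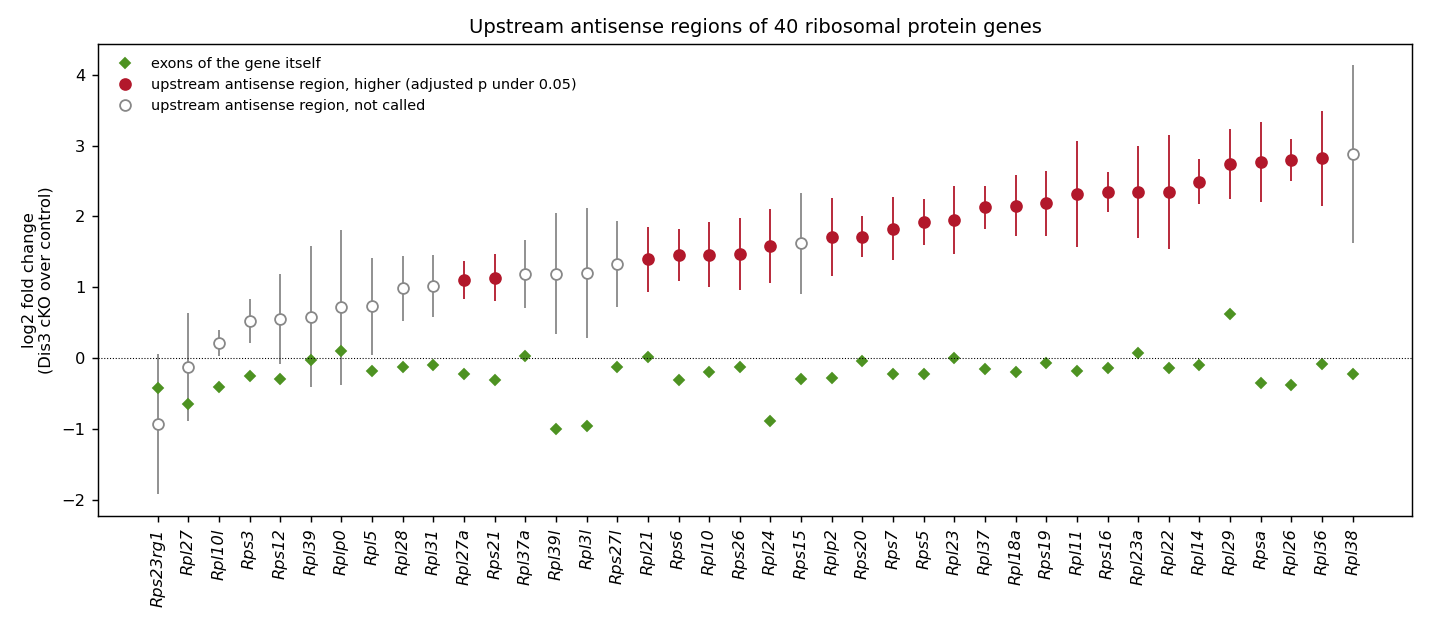
Log2 fold change (*Dis3* cKO over control) of the antisense windows upstream of 40 members (circles with standard errors, filled where called higher) and of the exons of the same genes (diamonds), ordered by the window. The windows run from -0.93 to 2.88, and 2 of 40 are below 0.

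A few members split the libraries by replicate number. *Rpl29*, whose protein lies on the surface of the large subunit, had 3314, 3427, 2662, 2490.2 and 2777 normalized counts in *Dis3* cKO and 3317, 2999, 2946, 123 and 101 in control. Control replicates 4 and 5 were far below all other libraries. Its log2 fold change was 0.63 over all libraries (SE 0.68, adjusted p = 0.633 from edgeR), 0.02 in replicates 1 to 3 and 4.56 in replicates 4 and 5. The interaction of genotype with the cluster of libraries had an adjusted p of 4.64e-11 (edgeR). The window upstream of *Rpl29* was higher in all *Dis3* cKO libraries, with 48.1, 39.9, 30.2, 25.5 and 26.0 normalized counts in *Dis3* cKO and 16.8, 2.83, 1.68, 0 and 3.68 in control.

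*Rplp0*, a stalk gene often used as a reference in quantitative PCR, had 11815, 12518, 13334, 15136 and 15635 normalized counts in *Dis3* cKO and 9206, 9439, 8341, 18663 and 18135 in control. Control replicates 4 and 5 were the highest libraries and control replicates 1 to 3 the lowest, with the *Dis3* cKO libraries between them. The fitted change was 0.48 on the log2 scale in replicates 1 to 3 and -0.26 in replicates 4 and 5 (interaction adjusted p = 2.60e-04 from edgeR). In *Rps7* and *Rpl30* control replicates 4 and 5 were also the highest libraries, with interaction adjusted p values of 0.037 and 0.013.

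*Rps7* had 18441, 18638, 19272, 22536 and 23276 normalized counts in *Dis3* cKO and 20023, 20209, 17287, 30222 and 31322 in control. Its copy *Rps7-ps3* had 6809, 8385, 9782, 3904 and 4308 in *Dis3* cKO and 9978, 10415, 8739, 814 and 1013 in control. In control replicates 4 and 5 the parent was thus highest and the copy lowest, and the exchange of reads between them was not tested. *Rps28*, a small subunit gene, was lower in replicates 4 and 5 of both groups, with 17355, 19136, 19305, 9876 and 12116 normalized counts in *Dis3* cKO and 17012, 14943, 14367, 7375 and 8236 in control. Its log2 fold change was 0.33 over all libraries (adjusted p = 0.439 from edgeR), and it was called higher with the cluster of libraries in the model. Of 89 tested members 4 had a called interaction, against 4.58% of all tested genes. *Rpl29*, *Rps7*, *Rpl30*, *Rps28*, *Rpl26*, *Rps16* and *Rpl14* were named after their values had been seen.

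**Figure D5:**
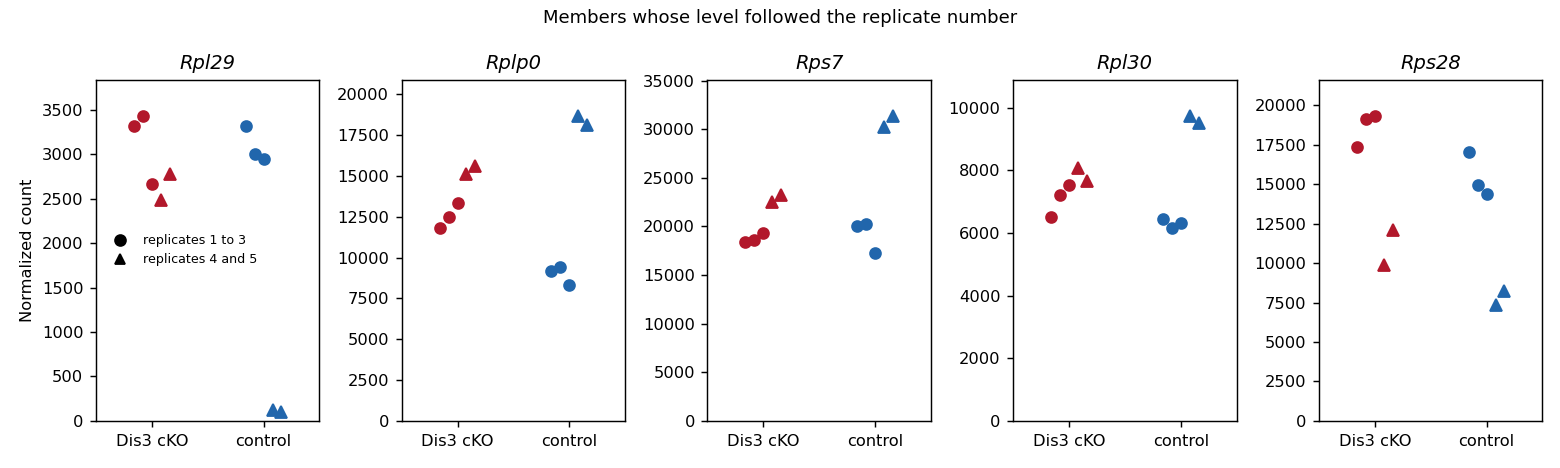
Normalized counts of *Rpl29*, *Rplp0*, *Rps7*, *Rpl30* and *Rps28* in each library of *Dis3* cKO and control. Circles are replicates 1 to 3 and triangles are replicates 4 and 5. For *Rpl29* the 2 control triangles are at 123 and 101, far below every other point, and for *Rplp0*, *Rps7* and *Rpl30* the control triangles are the highest points.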

How the data were processed

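Testis RNA of 5 *Dis3* cKO and 5 control mice at P4 was used, with groups taken from the labels. Stranded libraries were made from ribosomal RNA-depleted total RNA with random and poly(T) primers. The authors used cutadapt for trimming, HISAT2 for alignment and featureCounts for counting (1.6.4 in the file headers, GENCODE M18, GRCm38, whereas the methods name GRCm39 and a later annotation). The deposited tables hold raw counts per gene on its own strand and per upstream window on the opposite strand. Gene IDs were looked up in GENCODE M39 for symbols and biotypes (50129 of 54232 genes, 99.0% of counts). Reads aligning to several places are left out by default, which touches genes with many copies.

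Counts were filtered with filterByExpr, scaled by TMM and tested with edgeR 4.0.16 in R 4.3.3 (quasi-likelihood, two-sided, Benjamini-Hochberg over all tested genes, threshold 0.05), with no covariate. Windows used a mean of at least 3 counts and the gene table's library sizes. Paralog ratios used a prior count of 0.5 and an exact permutation test over libraries, two-sided, adjusted over 8 pairs. Fits were tested on simulated data. DESeq2 1.42.0 and other settings served as alternatives. Within each group, every pair of replicates differed beyond sampling noise (chi-square per degree of freedom of 4.36 or more). The labels give each library as a separate sample.

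Named members are all those called, the 3 highest and 3 lowest per length in each subunit, paralogs ending in l with their parents, and a list with roles beyond the ribosome. A called member and a gene of a comparison list that fall under this rule are not reported here. Members and lists were chosen with earlier results of these data known.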

Additional observations from a re-analysis of the deposited data

Results flagged for a closer look

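Among 122 groups of 5 values examined for 1 value far from the others, 9 were marked, and chance marks about 1 in 20. In control replicate 3, the normalized counts stood apart for *Rpl12* (18182, against 21242 to 22243 in the other controls), *Rpl22* (16307, against 19430 to 19784), *Rpl22l1* (1861, against 2904 to 3053), *Rps4l* (3619, against 3909 to 3960.0) and *Rpl7* (6466, against 4505 to 4979). The first 4 were low and *Rpl7* was high. Without control replicate 3, 25 members were called lower, among 806 genes in all. *Rpl22* also stood apart in *Dis3* cKO replicate 1 (18636, against 16693 to 17195 in the other *Dis3* cKO libraries).

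The log2 ratio of *Rpl22l1* to *Rpl22* was -3.13 in control replicate 3, against -2.76 to -2.67 in the other controls. That of *Rpl7l1* to *Rpl7* was -1.81 there, against -1.28 to -1.19. In control replicate 1 the log2 ratio of *Rps27l* to *Rps27* was -0.95, against -1.18 to -1.12.

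The fold changes of 4 of the 89 tested members differed between the 2 clusters of libraries by the interaction test of edgeR. The same test called 4.58% of all tested genes. The log2 fold change in replicates 4 and 5 minus that in replicates 1 to 3 was 4.54 for *Rpl29*, -0.74 for *Rplp0*, -0.46 for *Rpl30* and -0.40 for *Rps7*, with adjusted p values between 4.64e-11 and 0.037.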

How the results depend on the processing

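The 20 lower calls of members stood among 698 over all genes. They became 28 of 935 with DESeq2, 20 of 617 with DESeq2 size factors in edgeR, 20 of 701 with TMM factors that left members out, 36 of 1609 with library totals only, 27 of 750.0 without the filter on low counts, 38 of 1669 with the cluster term, 13 of 541 with the length trend removed, and 51 of 2360.0 in replicates 4 and 5 alone. Leaving out 1 library gave 11 to 25 lower calls of members (366 to 806 over all genes) and 0 higher calls. The higher calls of members were 1 with the cluster term (*Rps28*), among 1772 over all genes. There was 1 in replicates 1 to 3 alone (*Rplp0*), among 976 over all genes. In replicates 4 and 5 alone there were 2 (*Rpl29* and *Rps28*), among 2361 over all genes. The labels tie the numbers shared by the groups to no litter, so they were not taken as pairs. Correlations between equal numbers lay between 0.083 and 0.183, and 3 of 5 exceeded 0.1. Of the *Dis3* cKO libraries, 3 of 5 correlated best with their own number. Correlations were positive within a cluster of libraries and negative between clusters, so this check cannot decide whether the numbers mark pairs. With the replicate block there were 32 lower calls (1337 over all genes) and 1 higher call (*Rps28*, among 1489 over all genes). With block and length trend there were 22 lower calls (1057 over all genes) and 1 higher call (1197 over all genes).

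The large subunit median was -0.14 with the length trend removed and -0.13 with block and length trend. The small subunit median was -0.34 in replicates 4 and 5 alone. Leaving out 1 library gave large subunit medians of -0.24 to -0.18 and small subunit medians of -0.27 to -0.21.

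The sign turned for 7 named members. With the length trend removed *Rpl36a* was at 0.021 and *Rpl39* at 0.055, and with the block added they were at 0.019 and 0.0576. In replicates 1 to 3 alone *Rpl36a* was at 0.00762. In replicates 4 and 5 alone *Rpl39* was at 0.068, *Rps26* at 0.091, *Rps27l* at 0.076, *Rps4x* at 0.069 and *Rplp0* at -0.25. Leaving out 1 library gave -0.077 to 0.031 for *Rpl39*, -0.00785 to 0.28 for *Rplp0* and -0.17 to 5.17e-04 for *Rps19*.

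For the paralog ratios, a prior count of 2 changed no call. Leaving out 1 library gave differences of -1.12 to -0.91 for *Rpl39l* and -0.34 to -0.19 for *Rps4l*. Those for *Rpl7l1* were 0.26 to 0.47 and those for *Rpl22l1* -0.10 to 0.018. Without *Dis3* cKO replicate 1, *Rpl39l* and *Rps4l* passed together (adjusted p = 0.032 each, exact permutation test). Without *Dis3* cKO replicate 5, *Rpl39l* and *Rpl7l1* passed together at the same value. A single pair at the smallest possible p does not pass there either. These passes arose where pairs reached that limit together, and are not stronger evidence for any 1 pair. The number of upstream windows called higher was 9 in replicates 4 and 5 alone and 19 to 24 with 1 library left out. The alternatives for windows were chosen after seeing the data. The cause of these shifts was not tested.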

Other observations

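Many ribosomal protein genes carry small nucleolar RNAs (snoRNAs), guides of RNA modification, in their introns. Within 29 members lie 51 annotated snoRNA genes on the same strand, of which 22 had no read in any library. Of 8 tested, none was called by edgeR, 3 were higher at an unadjusted p under 0.05 and 1 was called higher by DESeq2. Over all tested genes edgeR called 4.42% higher after adjustment. *Snora21*, within *Rpl23*, had 54.3, 54.1, 63.7, 27.7 and 11.3 normalized counts in *Dis3* cKO and 5.59, 10.4, 15.1, 0 and 20.2 in control. Its log2 fold change was 2.02 (SE 0.60, adjusted p = 0.055), while that of *Rpl23* was 0.01. *Snora62*, within *Rpsa*, was at 1.78 (SE 0.75, adjusted p = 0.163). Reads of unspliced host RNA and of the snoRNA are not separated in these counts.

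Pseudogene symbols of members hold 312 rows of the table, of which 114 were tested. By edgeR 1 was higher and 1 was lower, against 4.42% and 3.48% of all tested genes. *Rpl21-ps4* was higher, with a log2 fold change of 0.94 (SE 0.27, adjusted p = 0.048 from edgeR), while its parent *Rpl21* was at 0.02. *Rps18-ps6* was at -8.08, with 8.64 to 26.0 normalized counts in *Dis3* cKO and 3137 to 4094 in control. The newer annotation lists it as protein-coding. *Rplp0-ps1* had 29.6, 48.4, 52.5, 15.5 and 22.6 normalized counts in *Dis3* cKO, against 113.7, 124, 127, 22.0 and 25.7 in control, and was not called.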
